A study of Mus musculus with 6 samples.

Results

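Integrins and laminins were examined in regenerating mouse muscle as the 37 genes, of 52369 in the deposited FPKM table, whose mouse symbol is that of an integrin alpha or beta chain or of a laminin alpha, beta or gamma chain. Of these, 26 are integrin chains and 11 are laminin chains, and the rule used names only, no measured value. FPKM is the number of sequenced fragments per kilobase of gene, scaled to the depth of the library, so levels can be set side by side between genes. The libraries came from tibialis anterior muscle of C57BL/6 mice, labelled 6 weeks old, in 2 groups of 3 called Control and L7. Every muscle, controls included, was injured at 5 weeks of age with 50 µl of 10 µM cardiotoxin, a snake toxin that destroys muscle fibres, and was collected on day 7. Both groups also received 6.25 µg of pcDNA3.1 plasmid with an in vivo transfection reagent, on days that the labels write as 1/2, 2 and 4. The L7 group carries the genotype label Linc-smad7 overexpression, after a long non-coding RNA, and the control group the genotype label control. The labels do not say what the control plasmid held, which cells took up plasmid or whether each library is 1 animal. The p-values therefore measure the spread between these libraries, part of which may be technical.

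Integrins are cell-surface receptors made of an alpha and a beta chain that tie the cytoskeleton to the extracellular matrix or to other cells. Laminins are trimers of an alpha, a beta and a gamma chain and form the sheet of basement membrane around each muscle fibre. In muscle the main laminin receptor of the fibre pairs Itga7 with Itgb1, while leukocytes that enter after injury carry their own integrins, such as those built on Itgb2.

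The whole-read depth behind the FPKM values was 19420012 to 24663153 reads in genes in the control libraries and 20725423 to 22179456 in the L7 libraries. One library, L7 replicate 3, differed from the rest, with a median of ratios scaling factor of 0.769 against 1.025 to 1.089. Its 12 muscle fibre markers summed to 97380 FPKM, against 21970 to 35740 in the others, and its 11 macrophage markers to 2648 FPKM, against 3613 to 5123. All 12 fibre markers were detected in every library, so the defining markers of the labelled tissue were present. Median of ratios scaling shifted the median difference over all tested genes by more than 0.1 on the log2 scale, from -0.15 to -0.0015. Reads of 4 Y-linked genes numbered 4184 and 4168 in control replicates 1 and 3 and 3185 in L7 replicate 1. They numbered 0 to 2 in the other libraries, so each group held libraries of both kinds and thus of more than 1 animal.

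Among the 37 chains, 30 had a mean of at least 1 FPKM over the 6 libraries and are called measured here. The most abundant was Itgb1, the beta chain shared by most matrix-binding integrins, and the order below it ran through Lamb2, Lamc1, Itgb2, Itga7, Itgb5 and Lamb1. The means of Lamc1, Itgb2, Itga7 and Itgb5, at 141, 137, 135 and 134 FPKM, differed by less than the spread of each over the libraries. Of the 30, 21 had a mean of at least 10 FPKM. The least abundant measured chain was Itga8, with 47 to 68 reads per library behind its values.

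**Figure D1:**
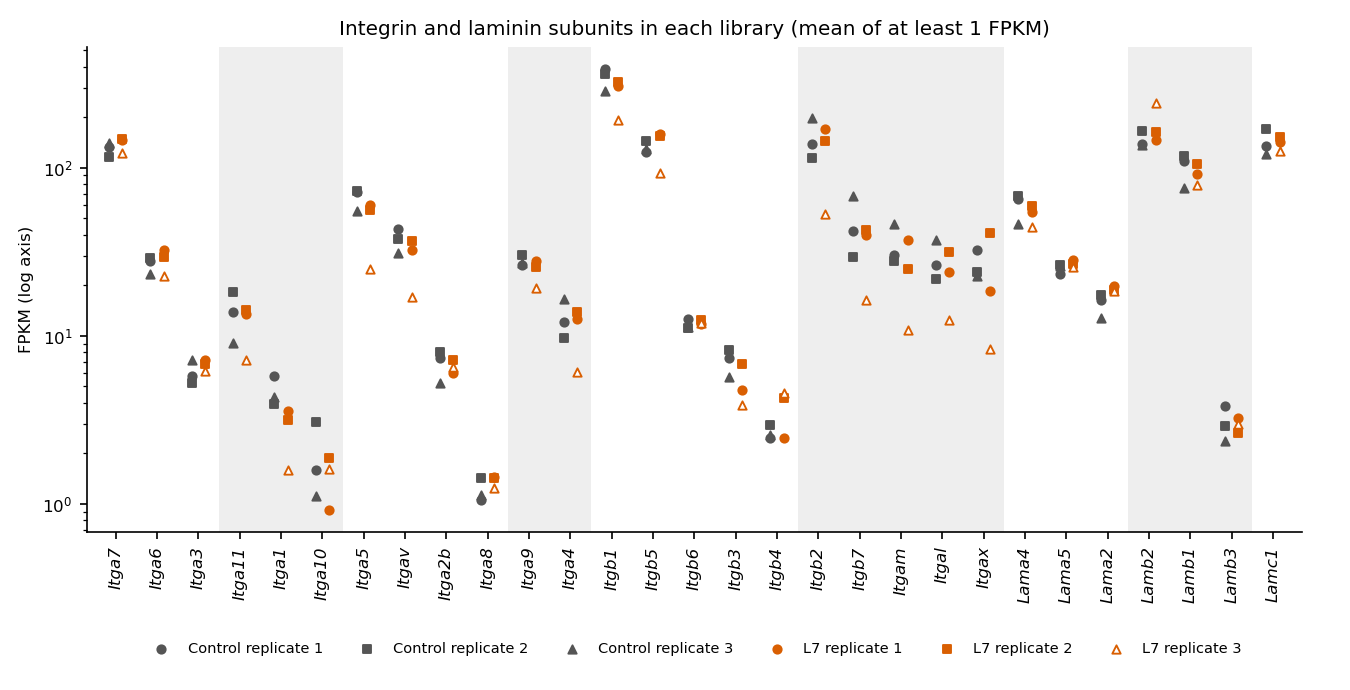
FPKM (log axis) of 29 of the 30 measured integrin and laminin chains in each library, grouped by role in shaded and unshaded bands, with grey symbols for Control and orange symbols for L7. The open triangle, L7 replicate 3, is the lowest point for 15 of 22 integrin chains in FPKM as deposited. After median of ratios scaling it would be the lowest for 10 of them, and the share over all genes was not computed.

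The series title names miR-125b, a microRNA, so the 3 prime UTR of every gene was searched for the complement of its seed, bases 2 to 8, which are in capitals in the mature sequence from RefSeq.
mmu-miR-125b-5p: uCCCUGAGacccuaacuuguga
The letters searched were CTCAGGG, on the sense strand, in the longest UTR that the annotation gives a gene. Among the 30 measured chains, 7 held 11 such matches, or 23.3% of chains, against 1985 of 12765 tested genes with a UTR, or 15.6%. The median UTR was 1113 bases long in the measured chains and 1156 in the tested genes. These matches are shown because they are the letters through which the microRNA could pair with a chain's transcript, with the match in capitals, and each lies in the last exon of its transcript (GENCODE M21, mm10).
Lamc1, chr1:153219015-153219021, minus strand: cagccttcccccCTCAGGGagggcaataaa
Itga7, chr10:128958185-128958191, plus strand: ctgtgtcactgtCTCAGGGccctttactcc
Itga9, chr9:118897630-118897636, plus strand: gcgtggtcaaccCTCAGGGgaaaactgtta
Itga4, chr2:79330824-79330830, plus strand: aggaatctagttCTCAGGGggtctccttct
Itgb3, chr11:104667394-104667400, plus strand: acagcctttgtcCTCAGGGgccctccccaa
Itga8, chr2:12108673-12108679, minus strand: aggatgcgaaggCTCAGGGagaaaagtgat
Matches of 6 chains are shown; Itga9 and Itgb3 each held 3, of which the first is shown. The base after the match was A, the letter that Argonaute favours at that place, in Lamc1 and Itga8 and in none of the other 9 matches. On the log2(FPKM + 1) scale these 6 chains differed between L7 and Control by 0.11 for Itga8, 0.09 for Itga7, -0.005 for Lamc1, -0.21 for Itga9, -0.26 for Itga4 and -0.41 for Itgb3. None of these differences passed the test described next.

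No integrin or laminin chain passed the test between the groups. The test was limma on log2(FPKM + 1) over the 14788 genes with a mean of at least 1 FPKM, with Benjamini-Hochberg adjustment. It called 0 of 30 measured chains at an adjusted p under 0.05, beside 0 of all genes tested (0.0%), and limma voom on whole reads also called 0 chains. At an unadjusted p under 0.05 stood 1 chain of 30, Itga1, by limma and also 1 by limma voom, against 5.9% of all genes by limma. The smallest adjusted p of any chain was 0.580.

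Counts of direction are given by family. Among the 22 measured integrin chains 6 had a higher and 16 a lower mean log2 level in L7, with a median difference of -0.24, where the median of all genes was -0.15 and 70.8% of all genes were lower. Among the 8 measured laminin chains 3 were higher and 5 lower, with a median of -0.0087. Relative to the median of all genes the medians were -0.087 for integrins and 0.14 for laminins. Without L7 replicate 3 and after median of ratios scaling the integrin median was 0.05.

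Complete separation of the groups was seen in 2 of 30 chains, or 6.67%, against 19.2% of all genes. Lama2 lay higher in all L7 libraries than in any control library, as did 5.49% of all genes, and Itga1 lay lower in all of them, as did 13.7%. After median of ratios scaling the groups did not overlap in 6 chains, or 20% of 30, against 18.4% of all genes. Itga7, Itga6, Lama5, Lama2 and Itga8 were then above and Itga1 below. Leaving out L7 replicate 3 in place of scaling gave 7 chains, those 6 and Itgb5, or 23.3% against 24.9% of all genes. The shares after either change were near those of all genes.

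**Figure D2:**
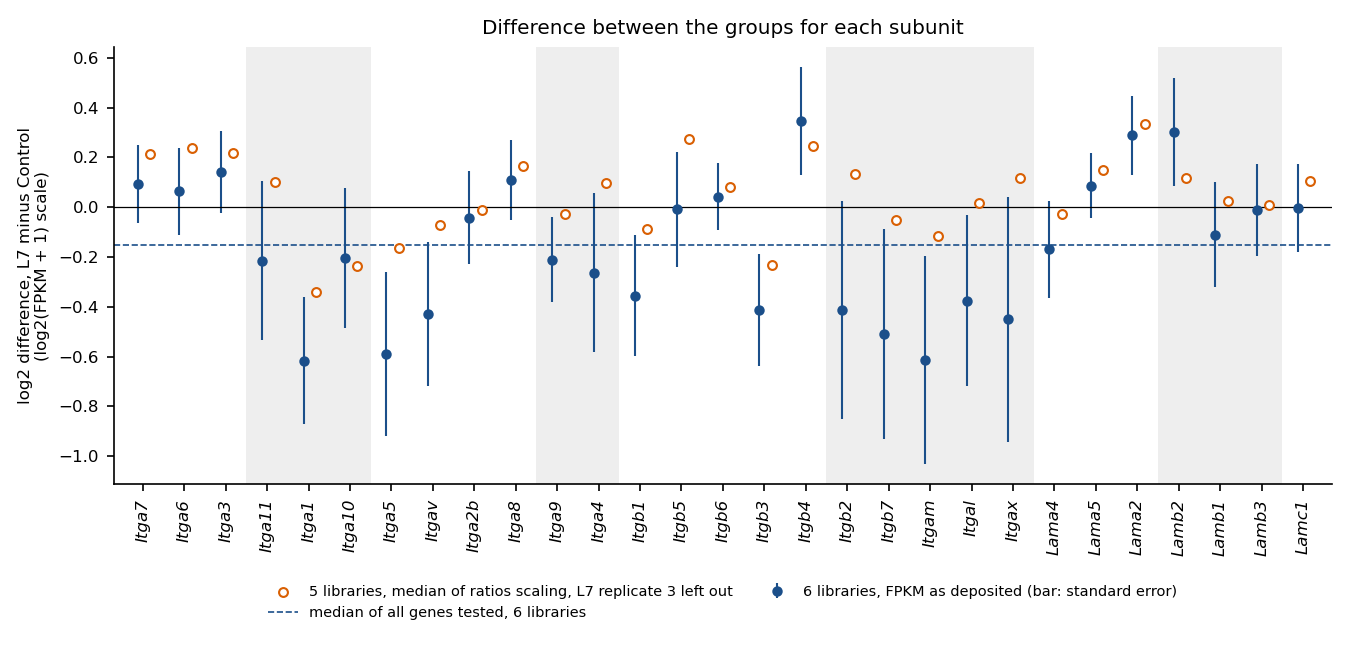
Log2 difference (L7 minus Control, log2(FPKM + 1) scale) of 29 of the 30 measured chains, with blue points and standard error bars for the 6 libraries as deposited and open orange points after median of ratios scaling without L7 replicate 3. The dashed line is the median of all genes at -0.15; the orange points lie closer to 0 than the blue ones for Itgb1, Itga5, Itgav and the leukocyte chains.

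The laminin-binding alpha chains Itga7, Itga6 and Itga3 stood at or slightly above control levels in L7. Itga7, the alpha chain of the fibre's laminin receptor (chr10:128933818-128958282), measured 134, 116 and 141 FPKM in the control libraries and 147, 148 and 122 FPKM in L7. Its L7 replicates 1 and 2 lay above every control library, while L7 replicate 3 lay inside the control range. The log2 difference was 0.09 with a standard error of 0.16 (limma adjusted p = 0.758). After median of ratios scaling the Itga7 levels were 123, 111 and 137 in controls and 141, 145 and 159 in L7, which do not overlap, and the log2 difference was 0.27.

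Itga6, which pairs with Itgb1 or Itgb4 and is carried by endothelium, Schwann cells and satellite cells, measured 27.8, 29.1 and 23.5 FPKM in controls and 32.3, 29.6 and 22.8 FPKM in L7. The groups overlapped, with the lowest and the highest value both in L7. Itga3, a laminin receptor chain of epithelia and vessels, ranged from 5.22 to 7.17 FPKM in controls and from 6.22 to 7.19 FPKM in L7. The median log2 difference of the 3 laminin-binding chains was 0.09, or 0.25 relative to all genes, and it was 0.27 after median of ratios scaling and 0.19 without L7 replicate 3. Beside these chains, all 12 skeletal muscle fibre markers had a higher mean in L7, none of them past the adjusted threshold. Their summed level ran from 21970 to 30640 FPKM in controls and from 33010 to 97380 FPKM in L7, with no marker at 0. Of the 7 regenerating fibre markers 2 were higher and 5 lower in L7. All 5 measured satellite cell and myoblast markers were lower, and no marker of either list passed the adjusted threshold. The part of these marker lists in the Itga7 level was not tested. In bulk muscle more or fewer cells of a type and more or less RNA per cell cannot be told apart.

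Among the collagen-binding alpha chains, Itga1 had the smallest unadjusted p of all chains. Itga1, a collagen IV receptor chain of mesenchymal and endothelial cells (chr13:114953096-115101964), measured 5.77, 3.94 and 4.35 FPKM in the control libraries and 3.59, 3.17 and 1.59 FPKM in the L7 libraries. Every L7 library lay below every control library, L7 replicate 3 by the most. The means were 4.69 ± 0.962 FPKM (SD, n = 3) in controls and 2.79 ± 1.05 FPKM (SD, n = 3) in L7. The log2 difference of Itga1 was -0.62 with a standard error of 0.26 (limma unadjusted p = 0.0448, adjusted p = 0.580). It was -0.37 without L7 replicate 3 and -0.34 when median of ratios scaling was applied as well, and the groups still did not overlap.

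Itga11, a fibrillar collagen receptor chain of fibroblasts, measured 13.9, 18.2 and 9.03 FPKM in controls and 13.6, 14.3 and 7.24 FPKM in L7. The spread inside each group exceeded the gap between them. Itga10, a collagen receptor chain best known from cartilage, ranged from 1.12 to 3.05 FPKM in controls and from 0.924 to 1.89 FPKM in L7. In Itga10, 33.5% of the exon bases are shared with Gm42957 on the same strand, so reads could be split between them. The fourth member, Itga2, the collagen receptor chain of platelets and epithelia, stayed under 1 FPKM with a highest value of 0.920. Beside these chains the 8 fibroblast and progenitor markers summed to 11640 to 15840 FPKM in controls and 9445 to 15140 FPKM in L7, with 2 higher, 6 lower and none at 0. Their part in the result was not tested.

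The RGD-binding alpha chains recognise an arginine-glycine-aspartate motif in fibronectin, vitronectin and fibrinogen. Itga5, the alpha chain of the fibronectin receptor, measured 72.3, 72.6 and 55.5 FPKM in controls and 59.8, 55.7 and 24.9 FPKM in L7. L7 replicates 1 and 2 lay inside the control range, and L7 replicate 3 far below it. The log2 difference was -0.59 with a standard error of 0.33 (limma adjusted p = 0.580), and it was -0.20 without L7 replicate 3. Itgav, whose partners include Itgb1, Itgb3, Itgb5, Itgb6 and Itgb8, measured 43.4, 37.9 and 31.3 FPKM in controls and 32.6, 36.6 and 17.1 FPKM in L7. Again only L7 replicate 3 left the control range. Itga2b, the platelet fibrinogen receptor chain, ranged from 5.22 to 8.07 FPKM in controls and from 6.04 to 7.17 FPKM in L7. The 6 platelet and megakaryocyte markers, of which 2 were measured, summed to 143 to 224 FPKM in controls and to 98.7 to 244 FPKM in L7, with none at 0. Nearly all of that sum was Pf4, a platelet chemokine, at 96.4 to 242 FPKM over the libraries, while Gp9, a platelet glycoprotein, did not exceed 0.109 FPKM. Their part in the Itga2b level was not tested. Itga8, a receptor chain of smooth muscle and mesenchyme, ranged from 1.06 to 1.44 FPKM in controls and from 1.25 to 1.45 FPKM in L7. The median log2 difference of the 4 RGD-binding chains was -0.24, with 1 higher and 3 lower, and -0.071 without L7 replicate 3.

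Itga9 and Itga4 form a pair of related alpha chains that bind tenascin, osteopontin or Vcam1. Itga9 measured 26.6, 30.3 and 27.2 FPKM in controls and 27.9, 25.8 and 19.3 FPKM in L7. Its first L7 library lay inside the control range and the other two below it. Itga4, which leukocytes use to leave the vessel with Itgb1 or Itgb7, measured 12.1, 9.67 and 16.7 FPKM in controls and 12.5, 13.9 and 6.11 FPKM in L7. The control spread covered L7 replicates 1 and 2, and L7 replicate 3 was the lowest of all. Without that library the log2 difference of Itga4 turned from -0.26 to 0.07.

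Beta chains outside the leukocyte class were led by Itgb1 (chr8:128685654-128733200). It measured 387, 362 and 288 FPKM in the control libraries and 309, 322 and 194 FPKM in L7. L7 replicates 1 and 2 lay between the control values and L7 replicate 3 below all of them. The log2 difference of Itgb1 was -0.36 with a standard error of 0.24 (limma adjusted p = 0.580), and -0.12 without L7 replicate 3. Itgb5, a vitronectin receptor chain that pairs with Itgav, measured 124, 145 and 129 FPKM in controls and 159, 155 and 92.6 FPKM in L7. Its L7 libraries fell on both sides of the controls, with replicates 1 and 2 the highest of all and replicate 3 the lowest. The log2 difference of Itgb5 was -0.0084 over all libraries and 0.24 without L7 replicate 3.

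Itgb6, known as an epithelial chain that activates latent TGF-beta with Itgav, measured 12.6, 11.2 and 11.3 FPKM in controls and 11.8, 12.5 and 11.9 FPKM in L7. In FPKM as deposited its SD over the 6 libraries was 0.586 around a mean of 11.9, the smallest relative to the mean of all measured chains. That steadiness depended on scaling. After median of ratios scaling Itgb6 stood at 15.5 in L7 replicate 3, against 10.6 to 12.2 in the other libraries. The 7 epithelium and skin markers beside it summed to 5.32 to 13.6 FPKM in controls and 7.05 to 7.57 FPKM in L7. Of these markers 2 were measured, and Krt14 was listed at 0 in 3 libraries and Krt1 in 4. Itgb3, the partner of Itga2b and Itgav, ranged from 5.66 to 8.29 FPKM in controls and from 3.87 to 6.79 FPKM in L7, with a log2 difference of -0.41 and a standard error of 0.23 (limma adjusted p = 0.580). Itgb4, the partner of Itga6 in hemidesmosomes and in Schwann cells, measured 2.48, 2.96 and 2.59 FPKM in controls and 2.47, 4.27 and 4.55 FPKM in L7. Its L7 replicates 2 and 3 lay above all controls and L7 replicate 1 below them. The 8 Schwann cell markers, of which 5 were measured, summed to 64.6 to 68.3 FPKM in controls and to 72.8, 70.0 and 125 FPKM in L7, with all 5 higher and none at 0. Their part in the Itgb4 level was not tested.

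The leukocyte integrins varied most between libraries, relative to the mean, among the chains of at least 10 FPKM, with Itgax at 24.6 ± 11.3 FPKM (SD, n = 6) at the top. Itgb2, the beta chain of the leukocyte adhesion receptors, measured 138, 115 and 199 FPKM in controls and 170, 145 and 53.2 FPKM in L7. Both L7 replicates 1 and 2 lay inside the control range and L7 replicate 3 at less than any other library. The log2 difference was -0.41 with a standard error of 0.44 (limma adjusted p = 0.646), and it was 0.10 without L7 replicate 3, so its sign rested on that library.

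The alpha partners of Itgb2 followed with lower levels. Itgam, which with Itgb2 makes the complement receptor Mac-1 of macrophages and neutrophils, measured 30.4, 27.8 and 46.1 FPKM in controls and 37.2, 25.1 and 10.9 FPKM in L7. Itgal, which makes LFA-1 of lymphocytes, measured 26.5, 21.8 and 37.2 FPKM in controls and 24.0, 31.6 and 12.5 FPKM in L7. Itgax, the CD11c chain of dendritic cells and some macrophages, measured 32.6, 24.0 and 22.7 FPKM in controls and 18.6, 41.2 and 8.40 FPKM in L7. All 3 chains had their lowest value in L7 replicate 3, and of the 3 only Itgax had its highest in L7, in replicate 2. The 6 dendritic cell markers, of which 4 were measured, summed to 13.0 to 21.6 FPKM in controls and to 8.94, 19.3 and 11.4 FPKM in L7, with none at 0. Itgad, the fourth partner, did not exceed 0.238 FPKM. These 4 alpha chains lie close together on chromosome 7, Itgal at chr7:127296260-127335138 and then Itgam, Itgax and Itgad up to base 128223816. In Itgam, 68.7% of the exon bases are shared with Gm49368 on the same strand, so the level of Itgam depends on how such reads were counted.

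Itgb7, the partner of Itga4 and Itgae on lymphocytes, measured 41.9, 29.4 and 67.7 FPKM in controls and 39.6, 42.9 and 16.4 FPKM in L7. Its pattern over the libraries was close to that of Itgb2, with control replicate 3 highest and L7 replicate 3 lowest. The ratio of Itgb7 to Itga4 FPKM was 3.04 to 4.06 in controls and 2.68 to 3.16 in L7, so Itgb7 exceeded this alpha partner in every library. Against Itgae, whose protein tethers resident T cells to epithelium, the ratio was 42.9 to 94.2 in controls and 42.1 to 58.1 in L7.

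Summed leukocyte markers are given beside these chains. The 11 macrophage markers, all measured, summed to 3992, 3613 and 5123 FPKM in controls and 5114, 4251 and 2648 FPKM in L7, and 2 were higher and 9 lower in L7. The 8 neutrophil markers, of which 6 were measured, ran from 188 to 305 FPKM in controls and stood at 337, 177 and 55.0 FPKM in L7. The 10 T and NK lymphocyte markers ran from 122 to 235 FPKM in controls and from 85.0 to 147 FPKM in L7. Of these 2 were higher in L7, Cd4 and Cd8a, and 8 lower. Gzmb alone averaged 67.5 ± 21.8 FPKM in controls and 27.8 ± 10.7 FPKM in L7 (SD, n = 3 each), a large part of the sum. In these 3 lists the lowest sum was in L7 replicate 3, as for Itgb2, and no marker was at 0. The dendritic cell markers were lowest in L7 replicate 1 instead, and the neutrophil sum was highest there, where Itgax was second lowest. The part of the leukocyte content in the chains' levels was not tested. The 5 measured leukocyte chains were all lower in L7 with a median log2 difference of -0.45, and none passed limma. Without L7 replicate 3 that median was -0.015, and the differences of Itgb2 and Itgax were above 0.

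**Figure D3:**
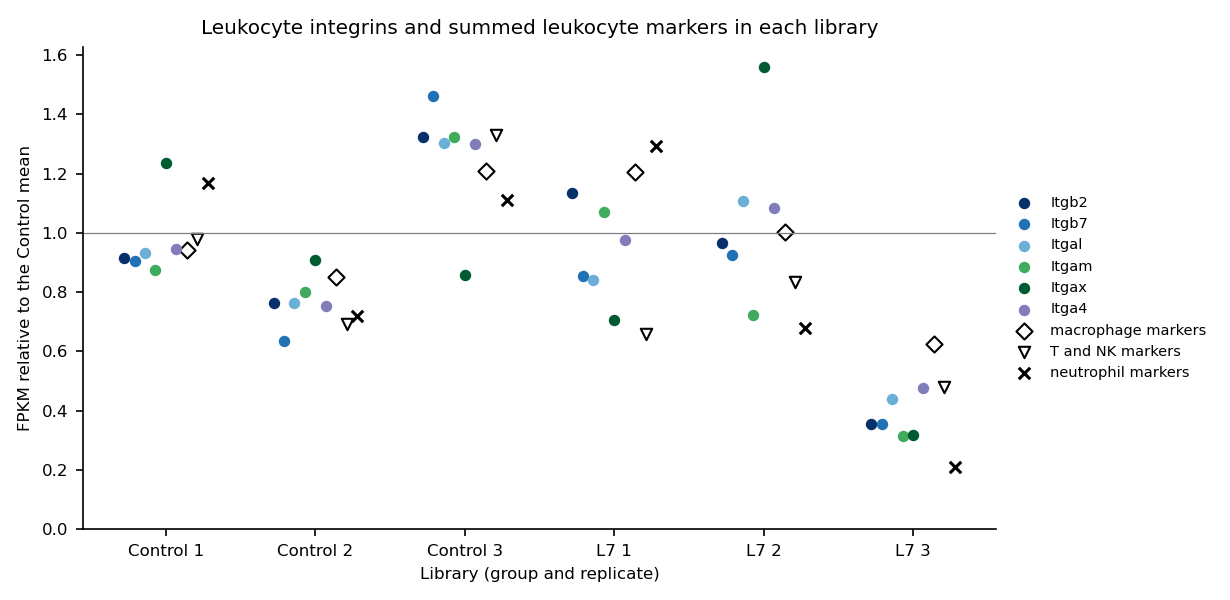
FPKM of the leukocyte chains and Itga4 (coloured dots) and summed FPKM of 3 leukocyte marker lists (black symbols) in each library, each divided by its own control mean; the line marks 1. Every dot and symbol of L7 replicate 3 lies below 1, while those of L7 replicates 1 and 2 lie on both sides.

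Because PU.1 is a known activator of myeloid integrin genes, the RefSeq promoter windows (GRCm38.p6, 250 bases before to 50 after the start) were searched for its core GAGGAA on both strands. Of 26 windows of 23 chains 14 held it, and 28.3% of all 32851 windows did. The Itgam window held 3 matches, the Itgb7 window 1 and the Itgax window 0. These were the only 3 windows of leukocyte chains, as Itgb2 and Itgal had none. Only 2 of the 14 windows with the core were thus of leukocyte chains. The matches of Itgam and Itgb7 are shown as examples from the leukocyte class, 30 bases each on the gene's strand. The match or its complement TTCCTC is in capitals.
Itgam, chr7:128062544-128062573, plus strand: tgttttctcccgGAGGAAggctacagaggg
Itgam, chr7:128062613-128062642, plus strand: tctcatagctttTTCCTCatacttctctgt
Itgam, chr7:128062660-128062689, plus strand: ggccttggtggcTTCCTCaaagtgtctgtg
Itgb7, chr15:102231916-102231945, minus strand: agggtgtgtcacTTCCTCctctgctgcctc
These are matches of letters and say nothing on binding in these muscles.

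The laminin alpha chains decide the type of basement membrane. Lama2, the alpha chain of the muscle fibre's laminin whose loss causes a muscular dystrophy (chr10:26980036-27619758), measured 16.5, 17.4 and 12.7 FPKM in controls and 19.7, 18.7 and 18.6 FPKM in L7. Every L7 library lay above every control library and the L7 values lay close together. The means were 15.5 ± 2.49 FPKM (SD, n = 3) in controls and 19.0 ± 0.607 FPKM (SD, n = 3) in L7. The log2 difference was 0.29 with a standard error of 0.16 (limma adjusted p = 0.580), which did not pass. It was 0.30 without L7 replicate 3, as large as with it.

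Lama4, the alpha chain of vessel and fat cell laminins, measured 65.3, 68.2 and 46.4 FPKM in controls and 54.6, 59.1 and 44.7 FPKM in L7. Lama5, an alpha chain of vessels and of the synapse, measured 23.4, 26.5 and 26.1 FPKM in controls and 28.2, 26.9 and 25.6 FPKM in L7. In both chains the groups overlapped. Lama4 was the most abundant alpha chain in every library, with Lama5 and then Lama2 below it. The ratio of Lama2 to Lama4 FPKM, a measure within a library, was 0.252, 0.255 and 0.274 in controls and 0.361, 0.317 and 0.416 in L7. The ratio was higher in all 3 L7 libraries than in any control library (exact permutation test, two-sided p = 0.1, the smallest possible with 3 against 3). Beside this, the 8 endothelial markers, all measured, summed to 286 to 346 FPKM in controls and 300.2 to 343 FPKM in L7, with 4 higher and 4 lower.

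Of the laminin beta chains, Lamb2 is known from synaptic laminins and Lamb1 is the widely expressed one. Lamb2 (chr9:108479736-108490530) measured 139, 165 and 137 FPKM in controls and 147, 164 and 244 FPKM in L7. Only L7 replicate 3 left the control range, and the log2 difference of 0.30 with a standard error of 0.22 (limma adjusted p = 0.580) was 0.09 without it. Lamb1 measured 110, 118 and 75.4 FPKM in controls and 91.9, 106 and 79.4 FPKM in L7. All its L7 values lay inside the control range. Lamb3, a chain of epithelial laminin, ranged from 2.38 to 3.80 FPKM in controls and from 2.65 to 3.26 FPKM in L7. L7 replicate 3 was thus the library highest in Lamb2 while it was the lowest in Itgb1, Itgb2 and Itga5.

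Among the gamma chains the abundant one was Lamc1, the chain shared by nearly all muscle and vessel laminins (chr1:153218922-153332786). It measured 135, 170 and 121 FPKM in controls and 142, 153 and 126 FPKM in L7. All L7 values lay within the control range and the log2 difference was -0.005 with a standard error of 0.18 (limma adjusted p = 0.990).

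The summed FPKM of all 26 integrin chains was 1156, 1085 and 1134 in controls and 1123, 1134 and 646 in L7. Apart from L7 replicate 3 the sums lay between 1085 and 1156. For the 11 laminin chains the sums were 497, 570.1 and 423 in controls and 490.1, 534 and 543 in L7, all within the control range. These sums are of FPKM as deposited. The scaling factor of L7 replicate 3 was 0.769, against 1.025 to 1.089 elsewhere, so median of ratios scaling would raise both its sums relative to the other libraries. With each sum divided by the factor of its library, the integrin sum of L7 replicate 3 would still be the lowest. Its laminin sum would then leave the control range and be the highest. The beta chains held more than the alpha chains among integrins in every library, at 674 to 714 against 411 to 443 in controls and 376 to 697 against 269 to 445 in L7.

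**Figure D4:**
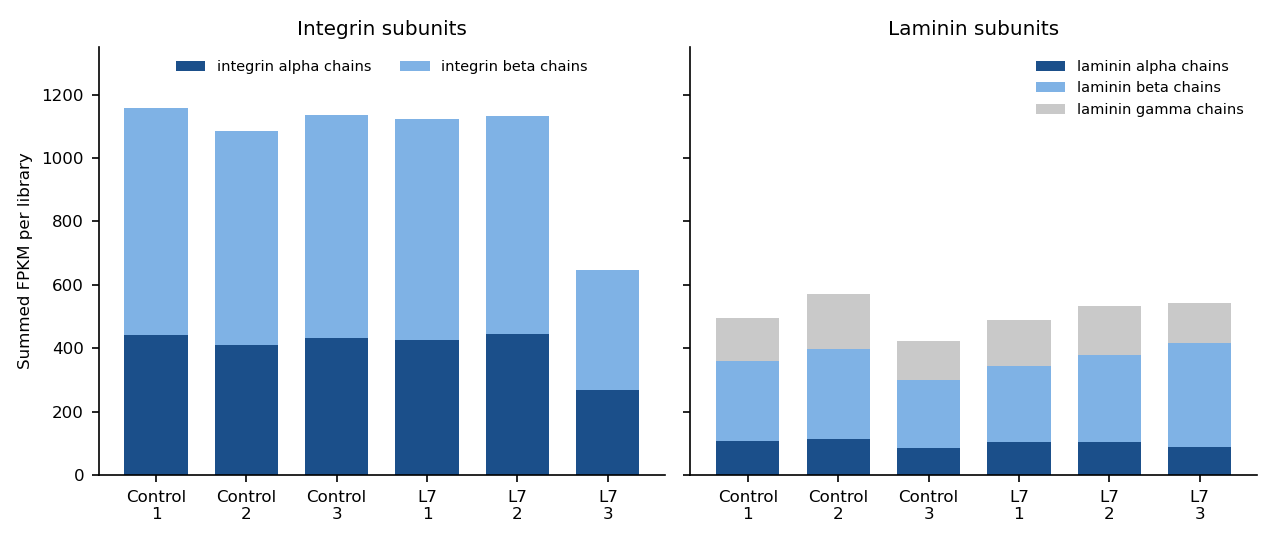
Summed FPKM of integrin chains (left) and laminin chains (right) in each library, stacked by alpha, beta and gamma chains. The integrin bar of L7 replicate 3 reaches 646 FPKM against 1085 to 1156 elsewhere, while its laminin bar reaches 543 FPKM, inside the range of the controls. The FPKM are as deposited, and median of ratios scaling would raise both bars of L7 replicate 3 relative to the others. Its integrin bar would still be the lowest, and its laminin bar would rise above all control bars.

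Shares within a class do not depend on how libraries are scaled. Over the integrin alpha and beta chains, the laminin alpha, beta and gamma chains and the alpha partners of Itgb2, 21 shares with a mean of at least 5% were compared by an exact permutation test, two-sided, whose smallest p with 3 against 3 is 0.1. The groups did not overlap in 4 of them, and the smallest p adjusted over the 21 was 0.525. As 0.1 lies above the threshold used for limma, no share could have passed, whatever its values. The test therefore cannot decide whether any share differed between the groups.

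Among laminin alpha chains, Lama2 held 15.6%, 15.4% and 14.8% of the FPKM in controls and 19.1%, 17.7% and 20.8% in L7. The control shares lay within 1 percentage point of each other and below all L7 shares. The means were 15.3 ± 0.398% in controls and 19.2 ± 1.51% in L7 (SD, n = 3 each, exact p = 0.1). Without L7 replicate 3 the difference was 3.16 percentage points, against 3.94 with it. The share of Lama4 was 58.8 ± 4.07% in controls and 53.0 ± 3.04% in L7 (SD, n = 3 each, exact p = 0.2), and that of Lama5 25.4 ± 4.47% and 27.2 ± 1.55% (exact p = 0.5). Those shares overlapped between the groups. Among beta chains of laminin, Lamb2 held 58.9 ± 4.45% in controls and 65.3 ± 8.23% in L7 (exact p = 0.4).

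Among integrin alpha chains, Itga7 held 30.2%, 28.3% and 32.7% in controls and 34.5%, 33.4% and 45.4% in L7. All L7 shares were above all control shares (exact p = 0.1), and L7 replicate 3 had the highest. Without that library the difference in the Itga7 share was 3.49 percentage points, against 7.33 with it. Itga5, second in the class, held 15.6 ± 2.46% in controls and 11.95 ± 2.45% in L7 (SD, n = 3 each, exact p = 0.2). Among integrin beta chains, Itgb5 held 17.4%, 21.5% and 18.4% in controls and 22.8%, 22.5% and 24.6% in L7. These did not overlap either (exact p = 0.1). The share of Itgb1 was 49.7 ± 7.55% in controls and 47.5 ± 3.64% in L7 (SD, n = 3 each, exact p = 0.8). Accordingly the ratio of Itgb5 to Itgb1 FPKM was 0.321, 0.399 and 0.448 in controls and 0.515, 0.480 and 0.478 in L7. In this ratio all L7 libraries were above the controls (exact p = 0.1). The ratio of Itga7 to Itgb1 was 0.345, 0.321 and 0.490 in controls and 0.476, 0.460 and 0.632 in L7, which overlap (exact p = 0.3). The groups also overlapped in Itga7 to Itga5 (exact p = 0.2), Lamb2 to Lamb1 (exact p = 0.4) and Itgax to Itgam (exact p = 0.8).

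**Figure D5:**
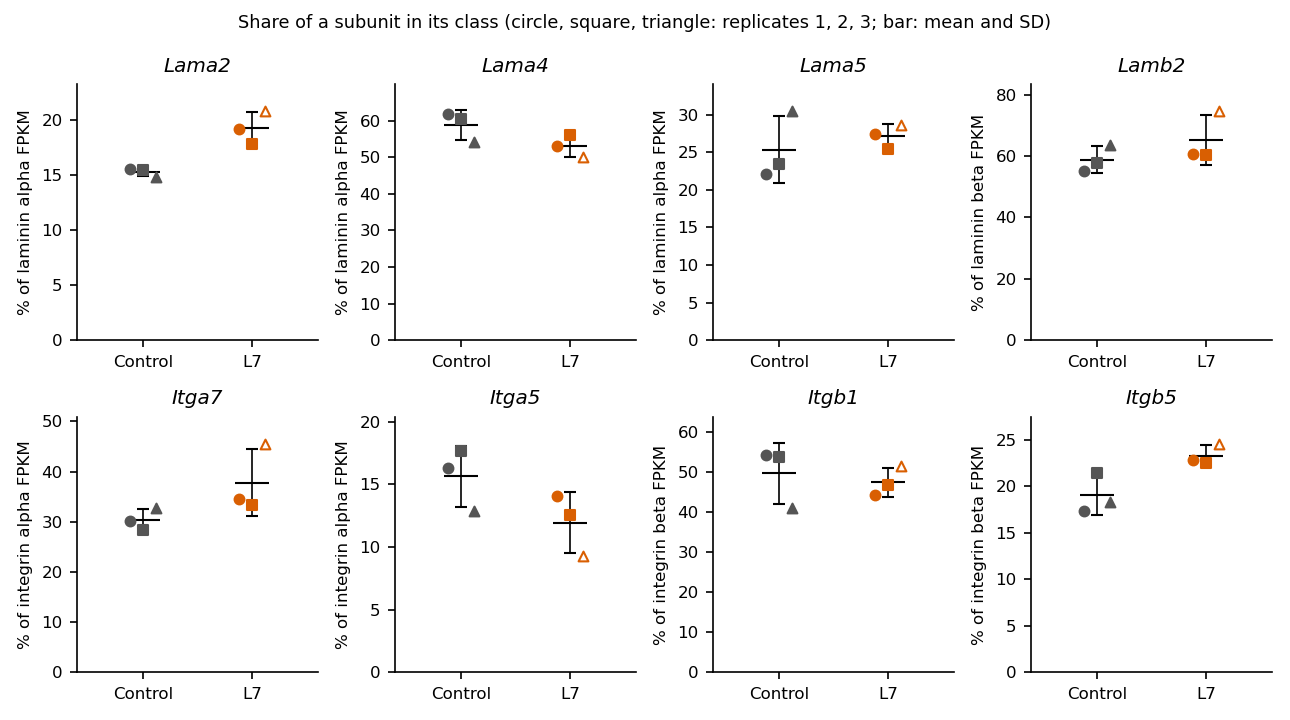
Share of 8 chains in the summed FPKM of their class in each library (circle, square and triangle for replicates 1, 2 and 3, L7 replicate 3 open), with the mean and SD as bars. The shares of Lama2, Itga7 and Itgb5 are higher in every L7 library than in any control library, and those of the other 5 overlap.

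Under 1 FPKM were 7 chains, given by their highest value in any library. Itgae reached 1.02, Itga2 0.920, Lama3 0.695, Itgb8 0.564, Itgad 0.238, Lamc3 0.162 and Lama1 0.114 FPKM. Lama1 and Lama3 are alpha chains of embryonic and of epithelial basement membranes, and Itgb8 is a TGF-beta-activating chain that pairs with Itgav. Lama1, Lamc3 and Itgad rested on 2 to 21 reads per library, and without the filter on low values limma also called 0 of all 37 chains.

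The other genes of these pathways were followed in 3 lists, in which limma and limma voom each called 0 genes at an adjusted p under 0.05. Over all genes tested 70.8% were lower in L7 and the median log2 difference was -0.15. Of 13 measured basement membrane partners, which crosslink laminin or anchor it to the cell, 9 were higher and 4 lower in L7. Their median log2 difference was 0.10, or 0.25 relative to all genes, with 0 at an unadjusted p under 0.05. Sparc, a collagen-binding matrix protein, averaged 3958 ± 768 FPKM in controls and 3413 ± 562 FPKM in L7 (SD, n = 3 each). Col4a1, a collagen IV chain, averaged 292 ± 32.7 FPKM in controls and 332 ± 41.3 FPKM in L7 (SD, n = 3 each). Neither difference passed limma, with an adjusted p of 0.715 for Sparc and 0.615 for Col4a1.

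Of 23 measured integrin ligands, 4 were higher and 19 lower in L7, with a median log2 difference of -0.61, or -0.45 relative to all genes. L7 replicate 3 was the lowest library in 19 of them, and in 17 after median of ratios scaling. At an unadjusted p under 0.05 stood 4 ligands, where 5.9% of all genes did, with limma adjusted p = 0.580 for each. The groups did not overlap in the same 4 of 23 ligands, or 17.4%, all with L7 below, against 19.2% of all genes in either direction and 13.7% with L7 below. After median of ratios scaling the groups of Icam2 overlapped and 3 remained separate. Ccn2, a matricellular ligand, measured 29.6, 27.7 and 24.8 FPKM in controls and 13.4, 20.5 and 8.93 FPKM in L7. Icam2, a ligand of the Itgal and Itgb2 pair on endothelium, measured 24.1, 21.6 and 23.2 FPKM in controls and 16.4, 18.7 and 16.3 FPKM in L7. Vcam1, the ligand of Itga4, measured 50.7, 39.5 and 40.1 FPKM in controls and 32.5, 33.7 and 17.2 FPKM in L7. The log2 differences were -0.96 for Ccn2, -0.40 for Icam2, -0.67 for Vcam1 and -0.63 for Jam3, a junction protein bound by the Itgam and Itgb2 pair.

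Of 30 measured genes of the adhesion complex on the inner side of integrins, 6 were higher and 24 lower, where 70.8% of all genes were lower. Their median log2 difference was -0.23, or -0.072 relative to all genes and so near that of all genes, with 0 at an unadjusted p under 0.05. Tln1, the talin that activates integrins, averaged 335 ± 42.0 FPKM in controls and 307 ± 77.1 FPKM in L7 (SD, n = 3 each). Vasp, an actin assembly factor, averaged 312 ± 35.2 FPKM in controls and 249 ± 73.4 FPKM in L7 (SD, n = 3 each). L7 replicate 3 was the lowest library in 23 of the 30, and in 17 after median of ratios scaling. How often it was the lowest over all genes was not computed.

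The authors' deposited table of the comparison gave 0 of the 37 chains an unadjusted p under 0.05, against 359 of its 31690 genes (1.13%). The smallest p of a chain in the authors' deposited table was 0.0538, for Itga1, with a log2 fold change of -0.62. For Lama2 the authors' deposited table gave a log2 fold change of 0.48 and a p of 0.109. Those fold changes stand beside normalised read counts, so they are not on the unscaled log2(FPKM + 1) scale used above. Among the terms in the authors' deposited tables, integrin-mediated signaling pathway held 2 differential genes of 92 (p = 0.321), basement membrane 1 of 91 (p = 0.685) and the KEGG pathway ECM-receptor interaction 2 of 88 (p = 0.637). Extracellular matrix organization held 8 of 214 (p = 0.00585, adjusted p = 0.185) in the authors' deposited table, and no integrin or laminin chain was among the differential genes of any of these terms.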

How the data were processed

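RNA sequencing of 6 libraries was analysed from processed values. The FPKM of 52369 genes were deposited by the authors; a second deposited table holds group mean signal (normalised read counts), log2 fold changes and p-values, and the term tables hold p-values and counts of genes. Per the submitters' processing notes, the build was mm10 and the tools were HISAT2 2.0.4, TopHat2 2.0.12, Bowtie2 2.2.3 and DESeq 1.12.0. For the counting program, its annotation and its strand setting, nothing is given in the sources used here. The level of Linc-smad7 itself was not analysed here.

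Symbols (51633 genes) and positions came from GENCODE M21. Whole reads were recovered from the steps of the FPKM values, and all 152096 of 152096 nonzero values (100%) lay within 0.05 of an integer. Groups were compared in R 4.3.3 with limma 3.58.1 and its trend option, on log2(FPKM + 1) with group as sole factor, two-sided, with Benjamini-Hochberg adjustment over the 14788 genes with a mean of at least 1 FPKM and a threshold of 0.05. A log2 difference on this scale understates the change of low genes. Shares and ratios were tested by exact permutation over libraries. Alternatives were a pseudocount of 0.1 or 0.5, no filter, median of ratios scaling, limma voom on recovered reads, sex from Y-linked reads as a covariate, a replicate block and each library left out. The chains, lists, roles and tests were chosen with earlier results of these data known. 1 measured chain is not reported here by name. The other chains are named, with all library values from a mean of 10 FPKM; in each pathway list up to 4 genes with an unadjusted p under 0.05 in the authors' deposited table or an adjusted one in limma are named, otherwise the 2 most abundant. Icam2, Vcam1, Jam3, Gzmb, Cd4 and Cd8a were named after their values were seen. Tables and figures used Python 3.11.15, pandas 2.3.3, numpy 2.4.6 and matplotlib 3.10.9.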

Additional observations from a re-analysis of the deposited data

How the results depend on the processing

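Under all 14 alternatives 0 chains passed limma, with 0 to 4 chains at an unadjusted p under 0.05, and the companion lists also had 0 called genes. The replicate numbers did not pair the libraries (correlations of deviations 0.322, -0.0652 and 0.0871), and the replicate block called 0 chains, with 3 at an unadjusted p under 0.05 against 1. The count of chains whose groups did not overlap, 2 over all libraries, was 6 after median of ratios scaling, 7 with that scaling and L7 replicate 3 left out, and 3 to 11 with 1 library left out, most without control replicate 3; these settings were chosen after seeing the data. Fewer libraries make separation easier by construction.

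Median log2 differences moved under median of ratios scaling to 0.27 for laminin-binding alpha chains, 0.17 for the other beta chains, 0.26 for laminin alpha chains and 0.15 for all laminins, and with L7 replicate 3 also left out to 0.048 for all integrins; 149 other medians moved by less than the spread between libraries. Of 420 recomputed differences of single chains 35 changed sign. With median of ratios scaling these were Lamc1 (0.17), Itgb5 (0.17), Lamb1 (0.064), Lama4 (0.0039), Itga2b (0.11) and Lamb3 (0.12). With L7 replicate 3 also left out they were Lamc1 (0.10), Itgb2 (0.13), Itgb5 (0.27), Lamb1 (0.023), Itgal (0.015), Itgax (0.12), Itga11 (0.10), Itga4 (0.10) and Lamb3 (0.0075). With the sex covariate they were Itgb5 (0.027) and Lamb3 (0.021). With 1 library left out the log2 difference ranged from -0.11 to 0.13 for Lamc1, -0.73 to 0.10 for Itgb2, -0.14 to 0.24 for Itgb5, -0.31 to 0.011 for Lamb1, -0.037 to 0.21 for Itga6, -0.996 to 0.09 for Itgax, -0.47 to 0.071 for Itga11, -0.46 to 0.068 for Itga4, -0.21 to 0.067 for Itga2b, -0.13 to 0.12 for Lamb3 and -0.41 to 0.059 for Itga10.

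Of 147 recomputed shares 15 changed sign. With 1 library left out the difference in percentage points ranged from -0.391 to 0.345 for Itga9, -1.53 to 0.141 for Itgal, -2.41 to 0.664 for Itgax, -6.51 to 0.128 for Itgb1, -3.93 to 1.73 for Itgb2 and -2.33 to 0.306 for Itgb7, and among partners of Itgb2 from -8.42 to 2.05 for Itgam, -0.287 to 4.34 for Itgal and -5.23 to 4.17 for Itgax. As a share of reads Itga9 stood at 0.092. The cause of these changes was not tested.

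With 3 libraries a group, the standard errors of the leukocyte chains (0.34 to 0.49 on the log2 scale) limit what could be detected in them.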
